A study of Mus musculus with 6 samples.

Results

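The genes of the cytosolic ribosome were followed through the CPEB1 RNA immunoprecipitation of freshly isolated satellite cells (fiSCs), the muscle stem cells sorted from mouse muscle. Members were chosen by symbol, as Rpl or Rps (with an optional p) followed by a number, plus Rpsa, without the Rps6k kinases, binding proteins and named pseudogenes. The rule took 92 of the 55376 genes in the tables, 55 of the large subunit and 37 of the small subunit, on 19 chromosomes. Among them 15 are paralogs whose symbol adds a suffix to that of a parent gene or names a further copy of it, such as Rpl7l1 or Rps27l. The 6 libraries came from C57BL/6 mice aged 3 months, with no genetic change and no treatment given in the labels. There were 2 libraries of RNA brought down by an anti-CPEB1 antibody (CPEB1 IP), 2 of RNA brought down by control IgG, and 2 of input RNA that was not precipitated. All 8 satellite cell markers, among them Pax7, Myf5 and Myod1, had a mean FPKM of at least 1 in each group. The numbers of mice or pools behind a library were not in the labels, so p-values measure the spread between these libraries.

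The ribosome has a small subunit that reads the codons and a large subunit that joins the amino acids, and each is built from rRNA and many small proteins. The mRNAs of these proteins are the classical 5′ terminal oligopyrimidine (TOP) mRNAs: they begin with a C followed by a run of pyrimidines, and their translation follows mTOR activity and Larp1. CPEB1 acts through the other end of an mRNA. It binds the cytoplasmic polyadenylation element (CPE), a short U-rich motif in the 3′ UTR, and controls poly(A) tail length and translation. Satellite cells leaving quiescence raise protein synthesis, and ribosomal protein mRNAs are a large part of that demand.

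Sequence near both ends of these mRNAs could be read from the reference. A TOP-like start, here a C followed by at least 4 pyrimidines (C or T) on the sense strand and beginning within 20 bases on either side of the RefSeq start site, was found in 54 of the 67 members in the table of starts (80.6%), against 54.1% of 16581 protein-coding genes. The following starts (GRCm38.p6, 28 bases each, 5′ to 3′, with the longest such run in capitals) are those of members on which the comparisons turn, and they run from long to absent.

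Rps12 (chr10:23787180-23787207, minus strand): cgccggCCTTTTCCCCTgccgccgccga
Rpl5 (chr5:107900502-107900529, plus strand): cagccaCTCTTTCTCacgtcgcttgcgt
Rps24 (chr14:24490670-24490697, plus strand): tggggtCCTTCCTTgcgcgttgatatga
Rpl22l1 (chr3:28805505-28805532, plus strand): cccgttCTCTTCCCacggctgcagctca
Rpl12 (chr2:32961708-32961735, plus strand): atccgtCTTTTCggctttcggctcggag
Rplp0 (chr5:115559474-115559501, plus strand): ctggttCTCCTataaaaggcacacgcgg
Rpl41 (chr10:128549150-128549177, minus strand): ggccggCTCggaagtgacgacaccgagc
Rpl7l1 (chr17:46782654-46782681, minus strand): accccgCCCggtgaggctgcgcaagcgc

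The run had 11 bases in Rps12, 9 in Rpl5, 8 in Rps24 and in Rpl22l1, 6 in Rpl12 and 5 in Rplp0. None began at the annotated start itself. The Rpl5 run began 20 bases before that start and ended before it, so it lies outside an mRNA from the RefSeq start. It is inside the gene span used for the counts, which begins at base 107900502 of chromosome 5. The Rps24 run began 2 bases before the start, and those of Rpl12, Rpl22l1, Rps12 and Rplp0 at bases 3, 4, 9 and 14 of the mRNA. Such a run is a match of letters and not a shown mRNA start. In Rpl41 and Rpl7l1 the longest run within the window had 3 bases, short of the definition.

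The opposite held for the CPE. The motifs TTTTAT or TTTTAAT, searched on the sense strand of annotated 3′ UTRs, were found in 23 of the 85 members with such a UTR (27.1%), against 58.8% of 21088 protein-coding genes and 68.3% of the 10917 protein-coding genes tested in CPEB1 IP against IgG. The 3′ UTRs of members are short: the longest annotated one had a median of 221 bases in members, 1087 in all protein-coding genes and 1488 in the tested ones. A shorter UTR has fewer places for a motif of this size, and the shares were not corrected for length. The sites shown here (mm10, with the motif in capitals) belong to 4 members with a CPE that differed between CPEB1 IP and IgG and to Rps27l.

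Rpl7l1 (chr17:46775185-46775210, minus strand): cagcctgcatTTTTATgcacattggt
Rpl5 (chr5:107908493-107908518, plus strand): gacgtttcatTTTTATggtacatgcc
Rpl5 (chr5:107908969-107908995, plus strand): taactgaactTTTTAATaaatgagtca
Rps24 (chr14:24496878-24496903, plus strand): aaaggctgtaTTTTATcaatttgtat
Rps20 (chr4:3834424-3834450, minus strand): ggttttttttTTTTAATtcatgtttat
Rps27l (chr9:66949436-66949461, plus strand): tattgtttgaTTTTATaaagtctaca

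The Rpl7l1 site lies 548 bases after the stop codon in a 3′ UTR of 1841 bases, and the second Rpl5 site ends 20 bases before the end of a UTR of 1009 bases. Each of these motifs is a match of letters and not a shown binding site.

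The genes together had 2564323 and 4941653 counts with CPEB1 IP, 1284716 and 1359052 with IgG, and 3270067 and 3314547 in input, and members held between 43729 and 160653 of them. Members took 3.39% and 3.25% of the counts with CPEB1 IP, 3.40% and 3.49% with IgG, and 2.36% and 2.61% in input. The share in both precipitates was thus above both input libraries, and those of CPEB1 IP were below those of IgG. Cpeb1 mRNA itself, no member, had 197 and 216 CPM (counts scaled to library size) with CPEB1 IP, 90.4 and 95.4 with IgG, and 97.6 and 82.2 in input. Markers of other cells moved between the groups too. The summed FPKM of the 4 endothelial markers was 88.7 to 102 in CPEB1 IP, 36.6 to 41.4 in IgG and 7.24 to 11.2 in input, and that of the 3 erythroid markers was 56.7 to 71.1, 32.9 to 34.7 and 4.16 to 8.94. The 3 mural cell markers were lower in both precipitates than in input, with 82.2 to 85.2, 32.2 to 33.1 and 172 to 217. Satellite cell markers split: in the same order Pax7 had 10.1 and 10.8, 6.41 and 5.45, and 39.8 and 46.0, while Myod1 had 893 and 831, 420 and 405, and 404 and 389. Counts on genes were only 39.5% and 39.1% of the FPKM total in IgG, and 69.5% or more in the other libraries, which lowers FPKM in IgG. The part of these shifts in the results on members was not tested.

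In input, members were among the most abundant mRNAs per length. FPKM, counts scaled to gene length and a library total, is the scale for levels between genes. The median member had an input FPKM of 83.6, against 4.78 for the 12124 genes tested in CPEB1 IP against IgG. There were 35 members at 100 or more and 10 under 10, of which 4 were under 1. The highest was Rplp0, the base of the acidic stalk that recruits elongation factors to the large subunit, with 725 and 786. Rpl4, a core protein of the large subunit, had 491 and 556, and Rplp1, an acidic stalk protein, 443 and 517. The highest small subunit gene was Rps3a1 with 329 and 495, next after these 3. The spread between its libraries was wide enough to overlap that of Rpl4 and Rplp1. Rplp2, the partner of Rplp1 in the stalk, had only 48.1 and 56.1 FPKM. The tables give Rplp2 a gene length of 2072 bases and Rplp1 one of 499, so the order of FPKM holds the annotated length as well as the counts.

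**Figure D1:**
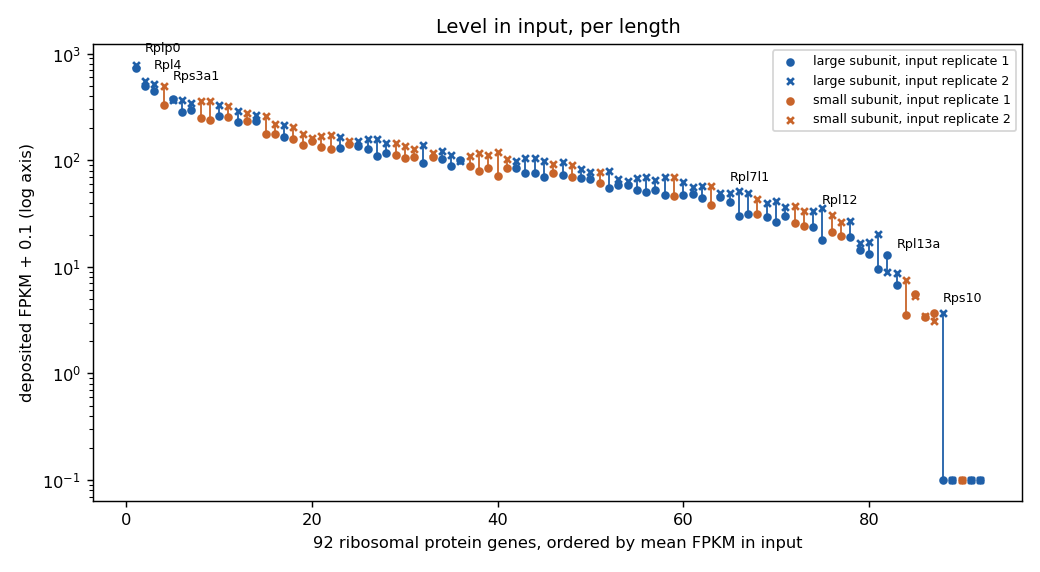
Deposited FPKM plus 0.1 (log axis) of the 92 members in the 2 input libraries, ordered by the mean, with large subunit genes in blue and small subunit genes in orange and a line joining the libraries. Rplp0 (725 and 786) leads, the subunits are mixed along the order, and the members at the right end have FPKM of 0 in at least 1 library.

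The paralogs lay in the middle and lower part of the order, with Rps27l the highest of them in place 38 of 92. Rps27l, a paralog of Rps27 induced by p53, had an input FPKM of 79.4 and 117, and its parent Rps27 had 175 and 219. Rpl22l1, the paralog of Rpl22, had 52.6 and 67.7, above the 29.6 and 36.2 of Rpl22. Rpl7l1, whose protein takes part in large subunit assembly, had 45.3 and 48.7. At the other end, Rpl39l and Rps12l1 had 0 counts in all 6 libraries, which in the deepest library allows up to 3 counts, or 0.607 CPM. Rpl3l, the form of Rpl3 in mature muscle fibres and heart, had 0 counts in both input libraries, 6 in CPEB1 IP replicate 2 and 1 in IgG replicate 2. Rpl10l, a form known from the testis, had at most 3 counts in a library, and Rpl32l at most 6. Reads of near-identical copies cannot be assigned with certainty: 61 members have named pseudogenes (up to 24, for Rps12 and Rpl31), and the counts on 305 such loci came to 3.73% to 4.39% of the counts of members. How the counting treated reads with several mapping places is not given in the sources used here.

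The first comparison, CPEB1 IP against IgG, asks which members came down with CPEB1 beyond the control. With libraries scaled by TMM, edgeR's quasi-likelihood test found 3 of the 85 members tested higher in CPEB1 IP and 8 lower, while over all 12124 genes tested 14.7% were called higher and 18.7% lower. The 3 higher members were Rpl7l1, Rpl3 and Rpl5, all of the large subunit. The 8 lower were Rpl10a, Rpl22l1, Rpl41 and Rplp1 of the large subunit and Rps12, Rps20, Rps24 and Rps27a of the small subunit. The median log2 fold change was -0.06 in members and -0.01 in all genes tested. The other 74 members did not pass the test, and 7 paralogs had too few counts to be tested. Called members made up 3.53% (higher) and 9.41% (lower) of those tested, both below the background.

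Rpl7l1 had the largest difference over IgG. Its CPM were 302 and 290 with CPEB1 IP, 172 and 181 with IgG, and 224 and 222 in input. Both CPEB1 IP libraries lay above input and both IgG libraries below it, with no overlap between any groups. The log2 fold change over IgG was 0.68 ± 0.10 (SE, n = 2 libraries a group) with an adjusted p of 6.77e-05 by edgeR. Rpl7l1 ranked first of the 85 members in all 13 fits made for this comparison, and its difference from the median member stayed between 0.71 and 0.75. These fits share libraries and a change of scale moves all members together, so this steadiness was largely given in advance. The gene (ENSMUSG00000063888.7, chr17:46773907-46782672, minus strand) overlaps no other gene's exons and has 1 named pseudogene.

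Rpl3, a large subunit protein that reaches the peptidyl transferase centre, had 972 and 889 CPM with CPEB1 IP, 701 and 721 with IgG, and 745 and 880 in input. CPEB1 IP stood apart from IgG and, by a narrow margin, from input. The log2 fold change over IgG was 0.32 ± 0.09 with an adjusted p of 0.00965 by edgeR. Rpl5, which carries the 5S rRNA into the large subunit and with Rpl11 can bind Mdm2, had 625 and 638 CPM with CPEB1 IP, 472 and 519 with IgG, and 388 and 502 in input. Its log2 fold change over IgG was 0.28 ± 0.09 (adjusted p = 0.0217 by edgeR), and this call was lost when all 6 libraries shared a fit, when counts on genes alone set the scale, and without IgG replicate 1. Its partner Rpl11 did not pass the test, with 285 and 252 CPM in CPEB1 IP against 270 and 251 in IgG, a log2 fold change of -0.03 ± 0.10 with an adjusted p of 0.863 by edgeR. Exons of Rpl5 and Rpl3 overlap those of small RNA genes inside them, and Rpl5 also overlaps Dipk1a, so some of their reads may be uncertain.

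**Figure D2:**
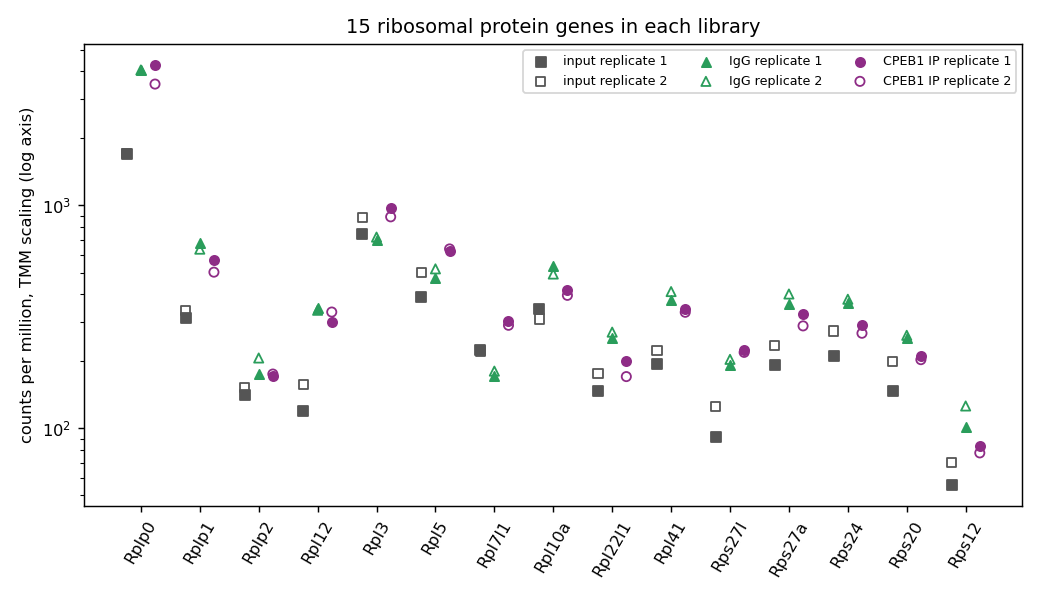
CPM with TMM scaling (log axis) of 15 members in the 2 input, 2 IgG and 2 CPEB1 IP libraries, with a symbol for each library. The IgG values of Rpl7l1 (172 and 181) lie below input and its CPEB1 IP values (302 and 290) above it, while Rplp0 and Rpl12 are higher in all 4 precipitates than in input.

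Among the members lower in CPEB1 IP, Rpl22l1 had the largest called difference. It had 200 and 171 CPM with CPEB1 IP, 254 and 270 with IgG, and 148 and 176 in input. CPEB1 IP overlapped input and lay below IgG, and its log2 fold change over IgG was -0.58 ± 0.11 (adjusted p = 0.000416 by edgeR). The parent gene Rpl22 had 110 and 102 CPM with CPEB1 IP, 105 and 106 with IgG, and 122 and 138 in input, and a log2 fold change of -0.07 ± 0.13 (adjusted p = 0.735 by edgeR). Rps12, on the small subunit head, had 83.7 and 77.6 CPM with CPEB1 IP, 101 and 126 with IgG, and 55.9 and 70.2 in input, and its log2 fold change was -0.57 ± 0.14 (adjusted p = 0.00419 by edgeR). With Rpl31 it has the most named pseudogenes, and 3 small RNA genes overlap its exons. Rps24, a small subunit protein mutated in some families with Diamond-Blackfan anaemia, had 292 and 267 CPM with CPEB1 IP, 365 and 379 with IgG, and 211 and 273 in input. Its log2 fold change was -0.48 ± 0.10 (adjusted p = 0.000733 by edgeR). Rpl22l1, Rps12 and Rps24 thus had the same order, with IgG highest, CPEB1 IP next and at least 1 input library lowest.

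The remaining 5 showed smaller differences. Rpl10a, of the L1 stalk where the empty tRNA leaves, had a log2 fold change of -0.41 ± 0.09, Rps20 -0.38 ± 0.10, Rps27a -0.38 ± 0.10, Rplp1 -0.36 ± 0.09 and Rpl41 -0.29 ± 0.10, with adjusted p between 0.00217 and 0.0217 by edgeR. Rps27a is made as a fusion with ubiquitin, and Rpl41 is the shortest ribosomal protein. The call of Rpl41 was lost when any 1 of the 4 libraries was left out. Rps12, Rps20 and Rps27a lost theirs when replicate 2 of either CPEB1 IP or IgG was dropped, Rplp1 when CPEB1 IP replicate 2 or IgG replicate 1 was dropped, and Rpl10a when IgG replicate 1 was dropped. Rpl22l1 and Rps24 were called lower in all 4 of these fits. Rps20 and Rpl41 fall outside the rule for named genes and are given because they passed the test. The member with the lowest log2 fold change, Rps10, did not pass it, at -0.67 ± 0.34 (adjusted p = 0.137 by edgeR): its 20 to 69 counts a library gave 12.9 and 14.2 CPM in CPEB1 IP and 15.2 and 26.2 in IgG.

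RLE scaling in edgeR forms factors as DESeq2 does, but on the filtered genes, so they are not those of the DESeq2 fit. The 8 lower calls were kept with RLE scaling (4 higher, 8 lower) and with counts on genes as the scale (2 higher, 14 lower). With all 6 libraries in 1 fit 4 of them were kept, and under 3 other settings none was. With the library total behind the deposited FPKM in place of TMM, the median of all genes moved to 0.84 and that of members to 0.75, and 80 of 86 members were called higher and 0 lower, while 62.7% of all genes were called higher. DESeq2 called 30 of 90 members higher and 0 lower, against 6.23% and 2.34% of 42045 genes. Without a low-count filter edgeR called 35 of 90 higher and 0 lower, against 8.36% and 5.56% of the same 42045 genes. Many of these genes have few counts, so their shares are no reference for members. These 2 settings change the genes tested as well as the scale. Relative to the median of all genes tested, the median member was 0.05 lower with TMM, with RLE scaling and with counts on genes, and 0.09 lower with the FPKM total. This offset was not stable either, since the median member was 0.04 above all genes when all 6 libraries shared a fit and 0.07 above without IgG replicate 2. Places among members moved less for some: in all 13 fits Rpl7l1 and Rpl3 were among the first 4 and Rpl22l1 was between places 81 and 85 of 85. Rps10, the lowest member with TMM, ran from place 74 to 85, and Rpl6l from 2 to 9 in the 12 fits that held it. A change of scale shifts all members together and the fits share libraries, so steady places are no independent support.

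**Figure D3:**
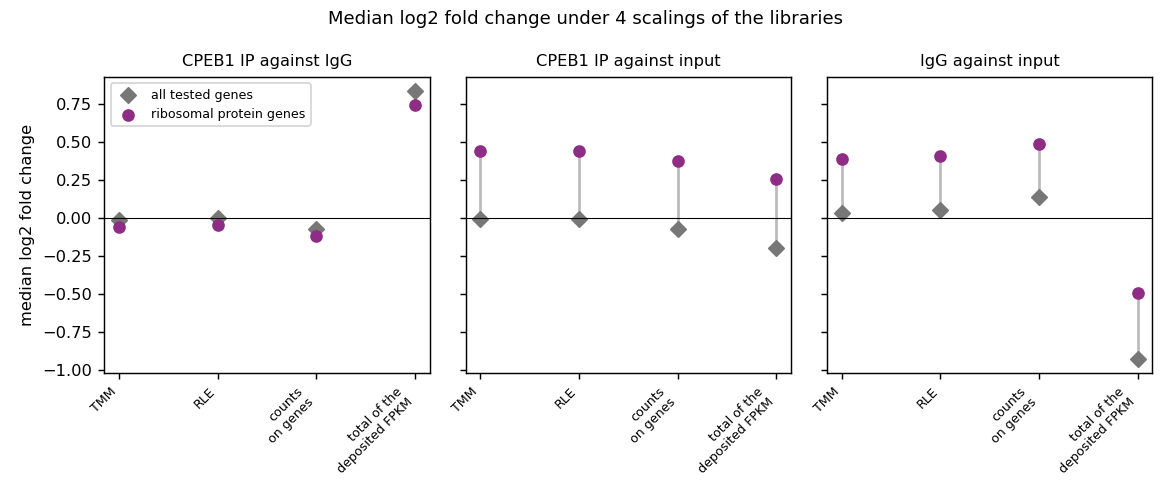
Median log2 fold change of ribosomal protein genes (circles) and of all genes tested (diamonds) in the 3 comparisons under 4 scalings of the libraries, joined by a line. In CPEB1 IP against IgG both medians move together, from about 0 to 0.75 and 0.84, with members never above all genes, and over input members lie above all genes. A scaling moves both medians by about the same amount, so the gap could hardly differ between the 4 and its likeness is no support.

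The study's criterion for a CPEB1-associated transcript asks for an FPKM ratio to IgG above 2, separately in both experiments, together with an adjusted p from DESeq2. Here edgeR took the place of DESeq2 (with DESeq2 the number of members was also 3), and libraries with the same replicate number were taken as 1 experiment. With 1 added to each FPKM, 9 members passed the ratio in experiment 1, 8 in experiment 2 and 3 in both. These 3, Rpl7l1 (2.74 and 2.69), Rpl3 (2.22 and 2.11) and Rpl5 (2.115 and 2.099), also passed the test, against 12.1% of all genes tested. Among those just outside were Rpl8 (1.99 and 2.03) and Rpl6l (2.42 and 1.98), each with 1 ratio under 2. With no pseudocount Rpl6l (2.61 and 2.13) and Rps4l (2.30 and 9.78) were also over 2 in both, but Rpl6l did not pass the test and Rps4l had too few counts for it, so the same number of 3 members met the criterion. The median ratio was 1.70 and 1.63 in members and 1.45 and 1.52 in all genes tested, but the added 1 pulls the ratio of low genes toward 1. Without it the 85 members tested had medians of 1.72 and 1.65 and all genes tested 1.67 and 1.78, so the order differed between the experiments. The FPKM scale puts nearly all members above 1, and only 2 of the 88 with a mean FPKM of at least 1 had a ratio under 1 in either experiment. With FPKM recomputed on TMM library sizes 0 members met the criterion, although edgeR called 3 of them higher and 5 at an unadjusted p under 0.05 (DESeq2: 30 adjusted and 37 unadjusted). Rps15, a small subunit head protein, had ratios of 1.85 and 1.82 and a log2 fold change of 0.07 ± 0.10 (adjusted p = 0.610 by edgeR). The study names Rps15 among genes whose protein rises while the transcript falls on activation, and its text does not name it as CPEB1-associated.

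**Figure D4:**
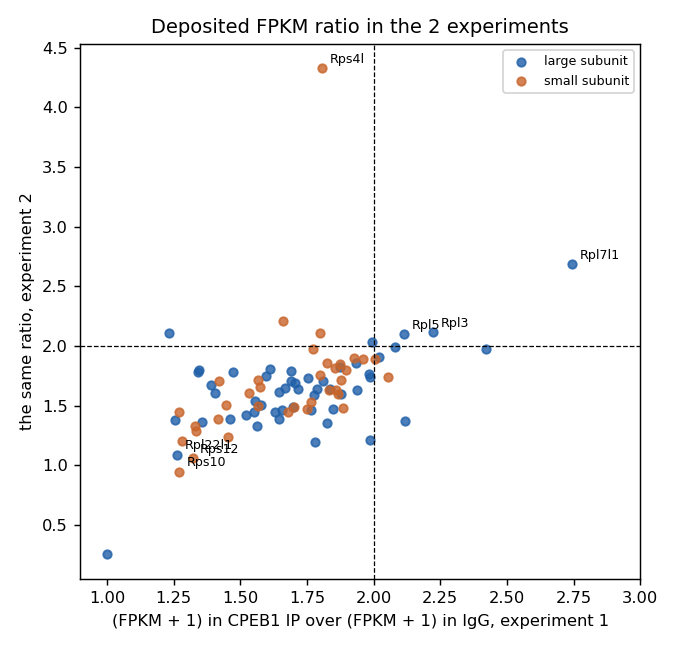
Ratio of FPKM plus 1 in CPEB1 IP to that in IgG in experiment 1 (horizontal) and experiment 2 (vertical) for the 88 members with a mean FPKM of at least 1 over both groups, with large subunit genes in blue, small subunit genes in orange and dashed lines at 2. Rpl7l1, Rpl3 and Rpl5 lie above 2 on both axes, and Rps4l (1.81 and 4.33), with 5 and 2 counts in IgG replicates 1 and 2, is high in experiment 2.

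Calls in CPEB1 IP against IgG fell both among members with a CPE and among those without. The shares were 9.09% higher and 9.09% lower with a CPE, and 1.67% and 10% without. Over all genes tested they were 14.7% and 18.7%. Of 22 tested members with a CPE, 2 were higher (Rpl5 and Rpl7l1) and 2 lower (Rps20 and Rps24) in CPEB1 IP, with a median log2 fold change over IgG of -0.09. Of 60 tested members with a 3′ UTR and no CPE, 1 was higher (Rpl3) and 6 lower, with a median of -0.04. No test was made between these groups of members.

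The second comparison, CPEB1 IP against input, showed a rise over much of the family. edgeR called 47 of 87 members tested higher in CPEB1 IP and 0 lower, against 17.0% of 12171 genes higher and 15.8% lower. At an unadjusted p under 0.05 edgeR had 60 members higher and 0 lower, and DESeq2 had 48 and 0, with no share of all genes computed. The adjusted edgeR calls took in 26 of 51 large subunit genes and 21 of 36 small subunit genes. The median log2 fold change was 0.45 in members and -0.0038 in all genes tested, and 66 members had both CPEB1 IP libraries above both input libraries, against 31.3% of all genes. Leaving out a CPEB1 IP library lowered the count to 13 of 87 without replicate 1 (8.98% of all genes higher) and 11 without replicate 2 (7.37% of all genes), and leaving out input replicate 2 raised it to 74 (20.1% of all genes), while the median stayed between 0.29 and 0.54. With the library total of the deposited FPKM the count was 11 of 87, near the 10.1% of all genes called higher. The median member was then 0.46 above the median of all genes, a gap that a change of scale hardly moves.

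Rpl12 and Rplp0 led. Rplp0 had 4266 and 3503 CPM with CPEB1 IP, 4058 and 4052 with IgG, and 1698 and 1704 in input. All 4 precipitates lay far above input, and the CPEB1 IP libraries fell on both sides of the IgG libraries, with log2 fold changes of 1.24 ± 0.14 for CPEB1 IP over input (adjusted p = 3.6e-05 by edgeR) and 1.25 ± 0.12 for IgG over input (adjusted p = 1.06e-10 by edgeR). Rpl12, which sits at the base of the stalk beside Rplp0, had 300.4 and 333 CPM with CPEB1 IP, 346 and 339 with IgG, and 120 and 157 in input. Its log2 fold change was 1.25 ± 0.15 in CPEB1 IP (adjusted p = 6.4e-05 by edgeR) and 1.31 ± 0.16 in IgG (adjusted p = 2.35e-08 by edgeR). Rpl12 overlaps Lrsam1 on the opposite strand and Snora65, and without strand the reads cannot be told apart.

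Rplp1 followed the same pattern, with 570 and 502 CPM with CPEB1 IP, 679 and 637 with IgG, and 312 and 338 in input. It rose over input by 0.77 ± 0.13 in CPEB1 IP (adjusted p = 0.00063 by edgeR) and by 1.02 ± 0.14 in IgG (adjusted p = 2.45e-07 by edgeR). Rplp2, its partner, did not pass the test in either precipitate: its log2 fold changes over input were 0.29 ± 0.13 (adjusted p = 0.105 by edgeR) and 0.39 ± 0.16 (adjusted p = 0.0566 by edgeR). Its CPM were 171 and 175 with CPEB1 IP, 176 and 207 with IgG, and 141 and 152 in input.

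On the small subunit, Rps27l stood first in CPEB1 IP against input. It had 225 and 219 CPM with CPEB1 IP, 193 and 204 with IgG, and 91.5 and 125 in input, a log2 fold change over input of 1.09 ± 0.15 in CPEB1 IP (adjusted p = 0.000221 by edgeR) and 0.88 ± 0.17 in IgG (adjusted p = 8.33e-05 by edgeR). Its parent Rps27 had 406 and 447 CPM with CPEB1 IP, 417 and 448 with IgG, and 257 and 299 in input, and its log2 fold change was 0.67 ± 0.13 in CPEB1 IP (adjusted p = 0.0019 by edgeR). Rpl29 (0.85 ± 0.14) and Rpl41 (0.74 ± 0.13) also passed the test by edgeR. At the low end Rpl22 (-0.25 ± 0.14) and Rpl10 (-0.10 ± 0.13) had values below 0 and did not pass the test. Rps6, the substrate of S6 kinase, rose by 0.51 ± 0.15 over input (adjusted p = 0.0189 by edgeR), with 686 and 598 CPM in CPEB1 IP and 393 and 539 in input.

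The third comparison, IgG against input, sets the control precipitate against RNA that was not precipitated. The IgG libraries also had fewer counts on genes than input, and these were a smaller part of the FPKM total. Such differences cannot be told apart from the precipitation. edgeR called 42 of 87 members tested higher in IgG and 0 lower, against 21.4% of 12980 genes higher and 19.4% lower. At an unadjusted p under 0.05 there were 52 higher and 3 lower by edgeR and 22 higher and 4 lower by DESeq2, with no share of all genes computed. After adjustment DESeq2 called 13 of 90 members higher and 1 lower, against 2.51% and 3.82% of 40052 genes, many of them with few counts. The adjusted edgeR calls were spread over 22 of 51 large and 20 of 36 small subunit genes. The median log2 fold change was 0.39 in members and 0.03 in all genes tested, and 64 members had both IgG libraries above both input libraries, against 36.6% of all genes. With the library total of the deposited FPKM the direction turned, to 1 higher and 54 lower of 86, against 4.59% of all genes higher and 59.7% lower. All genes moved to a median of -0.93 and members to -0.50. Relative to all genes the median member was higher by 0.36 with TMM and by 0.43 with the FPKM total, a gap that a change of scale moves little. Without IgG replicate 2 the count of higher members was 9 of 87, near the 9.84% of all genes called higher, and without IgG replicate 1 it was 18, against 9.86% of all genes.

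Behind Rpl12, Rplp0 and Rplp1, the largest rise of IgG over input was that of Rps10, at 0.99 ± 0.40 (adjusted p = 0.0441 by edgeR), on few counts and with 1 IgG library at 26.2 CPM against 15.2 in the other. Rpl41 had 377 and 411 CPM in IgG against 194 and 223 in input, a log2 fold change of 0.92 ± 0.15 (adjusted p = 4.38e-06 by edgeR), and Rps12 and Rps27a had 0.85 ± 0.20 and 0.84 ± 0.15. Rpl7l1 and Rpl3, which were higher in CPEB1 IP than in IgG, had values below 0 here, -0.34 ± 0.16 (adjusted p = 0.0835 by edgeR) and -0.19 ± 0.13 (adjusted p = 0.257 by edgeR). Against input, CPEB1 IP raised Rpl7l1 by 0.46 ± 0.13 (adjusted p = 0.0139 by edgeR), while Rpl3 had 0.25 ± 0.13 (adjusted p = 0.158 by edgeR). Rpl5, also higher than IgG, rose over input by 0.56 ± 0.14 in CPEB1 IP (adjusted p = 0.00782 by edgeR). In IgG it had 0.16 ± 0.14 over input (adjusted p = 0.401 by edgeR). The IgG libraries enter both comparisons, so the values of IgG against input and the rise over IgG are not independent.

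**Figure D5:**
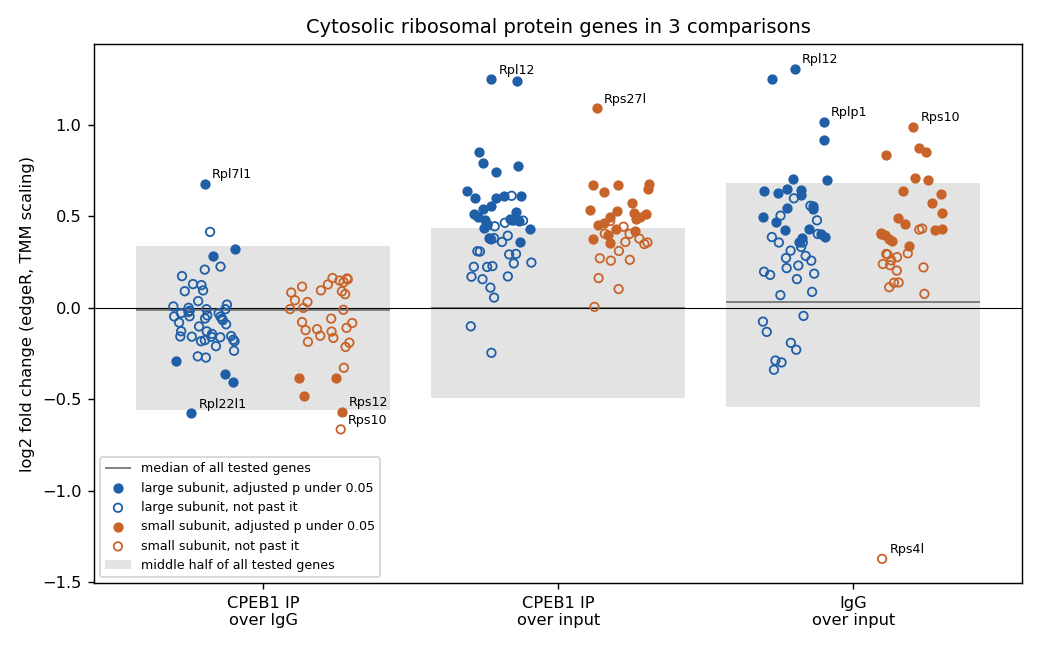
Log2 fold change (edgeR, TMM scaling) of each tested member in the 3 comparisons, large subunit in blue and small subunit in orange, filled where the adjusted p is under 0.05; the grey box runs from the lower to the upper quartile of all genes tested and its line their median. Members centre on 0 between CPEB1 IP and IgG (median -0.06) and lie mostly above 0 over input in CPEB1 IP (median 0.45) and in IgG (median 0.39).

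The balance of the subunits was then compared. The ratio of summed counts of large to small subunit genes was 1.501 and 1.469 with CPEB1 IP, 1.51 and 1.47 with IgG, and 1.51 and 1.42 in input. On the log2 scale CPEB1 IP differed from IgG by -0.0067, from input by 0.020, and IgG from input by 0.026, each less than the SD of 1 of its groups (0.022, 0.024 and 0.065 in CPEB1 IP, IgG and input). The exact permutation test over libraries (two-sided) gave p = 0.667, 1 and 1, in a design that cannot go below 0.333. This ratio depends on the most abundant members: without the member with the most counts in each subunit, the difference was 0.025 between CPEB1 IP and IgG, and CPEB1 IP and IgG were below input by -0.11 and -0.13.

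Calls among the paralogs were near the shares over all genes, on few genes tested. Against IgG 12.5% were called higher and 12.5% lower, where all genes had 14.7% and 18.7%. Over input 20% were called higher in each precipitate, where all genes had 17.0% in CPEB1 IP and 21.4% in IgG. Of the 8 tested between CPEB1 IP and IgG, Rpl7l1 was higher and Rpl22l1 lower, and the other 6, Rpl6l, Rpl36al, Rpl37rt, Rps27l, Rps27rt and Rps3a2, had log2 fold changes between -0.19 and 0.41 and did not pass the test. Over input, Rps27l and Rpl7l1 were the 2 of 10 tested that rose in CPEB1 IP, and Rps27l and Rpl22l1 were the 2 of 10 in IgG. Rps4l, annotated as a transcribed processed pseudogene and named for Rps4x, had 13 and 40 counts with CPEB1 IP, 5 and 2 with IgG, and 15 and 29 in input, and its log2 fold change of -1.37 ± 0.66 in IgG against input did not pass the test (adjusted p = 0.0922 by edgeR). Rps4x itself had 0.30 ± 0.14 (adjusted p = 0.0872 by edgeR) in the same comparison.

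Other genes of the same pathway were counted at the TMM scale, and a change of scale shifts all genes of a comparison together. Of the ribosomal protein genes outside the symbol rule, Rack1 and Fau rose over input in both precipitates, by 0.81 ± 0.12 and 0.73 ± 0.13 in CPEB1 IP and by 0.47 ± 0.13 and 0.65 ± 0.15 in IgG. A list of 17 other TOP mRNAs, mostly of translation factors, had 8 members higher in CPEB1 IP than in IgG and 0 lower, with a median log2 fold change of 0.23. Over all genes tested 14.7% were called higher and 18.7% lower. Eef2, the translocase of elongation, had 0.66 ± 0.09 (adjusted p = 2.85e-05 by edgeR) and Hnrnpa1, a splicing factor, 0.56 ± 0.10 (adjusted p = 0.000266 by edgeR), while Eef1a1, the carrier of aminoacyl-tRNA, had 0.05 ± 0.11 (adjusted p = 0.761 by edgeR). Of 78 mitochondrial ribosomal protein genes, 76 were tested, and 13 were higher and 0 lower, with a median of 0.24. The share called higher, 17.1%, was near the 14.7% of all genes tested.

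The summed counts put these lists on a scale that no normalization touches. Ribosomal protein counts were 2.87 and 2.88 times those of the other TOP mRNAs with CPEB1 IP, 3.36 and 3.47 with IgG, and 2.66 and 2.58 in input. CPEB1 IP lay below IgG and above input with no overlap, and the log2 difference from IgG was -0.25. Against the mitochondrial ribosomal proteins the ratio was 10.7 and 9.71 with CPEB1 IP, 12.5 and 12.6 with IgG, and 9.75 and 10.3 in input, a log2 difference from IgG of -0.30, and CPEB1 IP overlapped input. The exact permutation test over libraries (two-sided) gave p = 0.333 for both differences from IgG, the smallest that 2 against 2 libraries allow, so neither could pass a threshold of 0.05.

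Several features of the annotation bear on single members. Exons of 40 members overlap those of another gene, 20 of them on the opposite strand, and 30 members hold 59 snoRNA genes within them. Among the 46 tested members with no exon overlap, 1 was higher (Rpl7l1) and 3 lower in CPEB1 IP than in IgG, with a median of -0.05, and over input 30 of 48 rose in CPEB1 IP with a median of 0.48. Members with a snoRNA gene inside had 13 of 30 higher over input in CPEB1 IP (median 0.39) and those without 34 of 57 (median 0.46). Over all genes tested 17.0% were called higher over input in CPEB1 IP, and 14.7% higher and 18.7% lower than IgG. The rise over input was thus present with and without such overlaps, and it was not tested between them.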

How the data were processed

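RIP-seq reads of the 6 libraries, made with the SMART-Seq2 method, were mapped by the authors to mm10 with HISAT, and the authors deposited raw counts per gene from featureCounts and FPKM computed from those counts, the gene length and a library total. Counts on genes were 69.9%, 69.5%, 39.5%, 39.1%, 71.1% and 79.8% of that total in CPEB1 IP, IgG and input in turn. The annotation release, strand setting and handling of reads with several mapping places are not given in the sources used here. The kit does not mark strand.

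Raw counts of all genes were filtered with filterByExpr, scaled by TMM and compared for 2 groups at a time with edgeR 4.0.16 (quasi-likelihood test, Benjamini-Hochberg over all genes tested, threshold 0.05) in R 4.3.3. The SE is the log2 fold change over the square root of F. CPM share 1 TMM scale over all 6 libraries. The procedure was tested on simulated data. A group has only 2 libraries, so SEs borrow the spread of other genes. Floors cover counting error only. Alternatives were DESeq2 1.42.0, other scalings, filters and fits, other pseudocounts (1 was added to FPKM), and leaving out each library. Ratios of members to other lists, with their alternatives, were added after the data were seen. Genes were matched to GENCODE on mm10 (all 92 members had the same span), and starts came from RefSeq.

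Named genes were, for each comparison, the 3 highest and 3 lowest log2 fold changes of each subunit, the 3 members of each subunit with the most input FPKM, the stalk genes, Rpsa, Rps6, Rpl5, Rpl11, Rps27a, Rps15 and all paralogs. Others (Rpl41, Rps20, Rps27, Rpl8) were named after their values were seen. The members and lists were chosen with earlier results of these data known. Some genes that the rule takes are not reported here by name.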

Additional observations from a re-analysis of the deposited data

How the results depend on the processing

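The CPEB1 IP against IgG result depended most on scaling and filter. Members called higher and lower were 30 and 0 by DESeq2, 80 and 0 with the library total of the deposited FPKM, 35 and 0 without a filter on low counts, 2 and 4 with all 6 libraries in 1 fit, and 2 and 14 with counts on genes. Leaving out a library gave 2 to 7 higher and 3 to 9 lower. The median turned to 0.22 (DESeq2), 0.75 (FPKM total) and 0.34 (no filter), and ran from -0.059 to 0.053 when a library was left out. Without a filter, and by DESeq2, the median of all genes holds many genes with few counts and is no reference for members. With the FPKM total, members that turned to above 0 included Rpl22l1 0.23, Rps12 0.24, Rps24 0.32, Rpl10a 0.40, Rps27a 0.42, Rps20 0.42, Rplp1 0.44, Rps21 0.48, Rpl41 0.51, Rps15a 0.59, Rplp2 0.60, Rpl10 0.63, Rpl12 0.63, Rps3a1 0.64, Rplp0 0.67, Rpl22 0.74, Rpl11 0.78 and Rps4x 0.79. Without a filter Rps27a (0.013), Rps20 (0.015), Rplp1 (0.028), Rpl41 (0.10), Rplp0 (0.26) and Rps4x (0.38) did, and by DESeq2 Rps4x (0.27). These are named members called in at least 1 of the fits compared. Counting those never called, 57 of 85 members turned from below to above 0 with the FPKM total, 52 without a filter and 47 by DESeq2, and in IgG against input 72 of 86 turned to below 0 with the FPKM total. Over input, CPEB1 IP had 11 members higher and a median of 0.26 with the FPKM total, and 11 to 74 higher and 0 to 1 lower when a library was left out. IgG against input had 13 higher and 1 lower by DESeq2, 1 and 54 with the FPKM total, 6 and 5 without a filter, and 47 and 1 with all 6 libraries, and 9 to 59 higher and 0 to 2 lower when a library was left out. Its median was -0.50 with the FPKM total and 0.12 without a filter. With the FPKM total, members that turned to below 0 in IgG against input included Rps27l -0.013, Rps12 -0.037, Rps27a -0.051, Rpl22l1 -0.19, Rps3a1 -0.19, Rpl10a -0.23, Rpl29 -0.24, Rps24 -0.27, Rps20 -0.32, Rplp2 -0.50, Rps4x -0.59, Rps15a -0.63, Rps15 -0.65, Rps6 -0.66, Rpl11 -0.66, Rps21 -0.67, Rpl5 -0.73 and Rpsa -0.75. Summed as FPKM, the large-to-small log2 difference was -0.049 (CPEB1 IP against IgG) and 0.10 (IgG against input). Without the top member of each subunit it was 0.025, -0.11 and -0.13. The log2 difference from IgG in the ratio to other lists kept its sign when a library was left out, at -0.27 to -0.22 for other TOP mRNAs and -0.37 to -0.24 for mitochondrial ribosomal proteins. Members meeting the CPEB1-associated criterion were 0 with FPKM on TMM sizes and 2 to 5 when a library was left out. TOP-like starts fell to 61.2% with a window of 10 bases (35.2% of all) and 56.7% with at least 6 pyrimidines after the C (24.4%). The causes of these shifts were not tested beyond the scale itself. With the replicate block the counts were 3 and 8, 39 and 0, and 50 and 0 in the 3 comparisons, and the correlations of deviations between libraries with the same number were -0.011, -0.021 and 0.032. The study's methods set each CPEB1 IP against the IgG of its own experiment, and the ratios here take equal numbers as 1 experiment, but the counts show no pairing by number.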
